A study of Mus musculus with 22 samples.

Results

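The transcription factors that give the intestinal epithelium its identity were followed in organoids of the mouse duodenum exposed to cold atmospheric plasma (CAP). The genes were taken by symbol from the deposited table: Cdx1, Cdx2, Gata4, Gata6, Hnf4a, Hnf4g, Pdx1, Isx and Onecut2, 9 of 52636 genes, and each was found once. RNA was sequenced in 22 libraries, 4 of untreated organoids and 3 in each of 6 treated groups. Organoid lines came from wild type outbred CD1 mice aged 2 months, 1 mouse a line, so that n counts lines within a single group. Lines 1, 2 and 4 gave a library in every group, and line 3 was untreated only. Lines 1 and 2 were at passage 12 and 14 and came from male mice, while lines 3 and 4 came from female mice and were at passage 4 by the labels. The lines are numbered here by their labels. The paper numbers them otherwise and gives passage 2 for the female pair. Sex and passage therefore cannot be told apart across lines.

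All cultures were replated as fragments and grown to day 3 in the same matrix, and the untreated organoids received no plasma. A helium plasma jet at 50 W was applied for 60 s. In direct CAP it was played onto the culture at day 1, and its medium was renewed after 30 min or 24 h. Indirect CAP means medium taken from another treated culture, and PAM (plasma-activated medium) means medium treated without organoids. By the paper, both were given for 24 h from day 1, or for the last day of culture from day 2. For indirect CAP and PAM the labels name no start day and give 30 min or 24 h. Libraries labelled 30 min were taken as the day 1 groups and those labelled 24 h as the day 2 groups. That match is an inference, and the exposure time of the day 1 groups is uncertain. The collection time of the direct CAP 30 min group is also uncertain in the paper. Values are given as CP20M, the study's name for its unit. The paper's captions define that unit per kilobase of transcript. The deposited values behave as read counts scaled to 1 total per library, with steps between low values that short and long genes shared in most libraries, and they are treated here as not divided by gene length.

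These factors form a network that specifies and maintains the gut epithelium. The caudal homeobox factors CDX1 and CDX2 impose an intestinal rather than a gastric programme, and PDX1 and GATA4 mark its proximal, duodenal end. HNF4A and HNF4G are paralogous nuclear receptors that drive enterocyte genes, and GATA6 is a paralogue of GATA4. ISX is an intestine-specific homeobox factor that represses genes of vitamin A uptake. ONECUT2 is a cut-homeobox factor of the proximal gut and of liver and pancreas development.

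Coordinates are those of GRCm38. Cdx2 (chr5:147300805-147307270, minus strand) and Pdx1 (chr5:147269959-147275848, plus strand) are neighbours, with 24956 bases between them. Hnf4a occupies chr2:163506808-163572910, Hnf4g chr3:3508030-3658052 and Gata4 chr14:63198922-63271692. RefSeq (GRCm38.p6) gave a promoter for 4 of the genes, Hnf4a with 2 starts, Pdx1, Cdx2 and Isx. Promoters of Gata4 and Hnf4g were not in that table. The 250 bases before the RefSeq start are shown for Cdx2 and Pdx1, because the neighbours differed in their response. They are also shown for the upstream start of Hnf4a, because it held the single motif match found in these promoters. The RefSeq starts shown lie inside the gene spans given above, which come from GENCODE, so each window runs into its gene span. Capitals mark that match.
Cdx2, chr5:147307250-147307499, minus strand: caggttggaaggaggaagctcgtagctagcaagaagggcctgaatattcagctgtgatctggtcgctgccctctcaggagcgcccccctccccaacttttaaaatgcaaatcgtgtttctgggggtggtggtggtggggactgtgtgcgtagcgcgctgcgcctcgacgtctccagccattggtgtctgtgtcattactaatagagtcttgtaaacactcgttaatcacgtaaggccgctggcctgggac
Pdx1, chr5:147269847-147270096, plus strand: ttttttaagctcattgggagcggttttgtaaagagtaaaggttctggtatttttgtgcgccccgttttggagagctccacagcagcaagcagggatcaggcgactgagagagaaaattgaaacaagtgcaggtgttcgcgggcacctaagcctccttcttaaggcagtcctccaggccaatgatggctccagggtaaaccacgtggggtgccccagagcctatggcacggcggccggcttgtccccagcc
Hnf4a, upstream start, chr2:163506607-163506856, plus strand: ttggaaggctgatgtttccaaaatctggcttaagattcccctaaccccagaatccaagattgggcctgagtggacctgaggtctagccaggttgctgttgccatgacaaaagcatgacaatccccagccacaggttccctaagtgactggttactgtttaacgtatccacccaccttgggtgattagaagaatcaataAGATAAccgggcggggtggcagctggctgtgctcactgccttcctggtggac
Motifs were searched on both strands of these windows. The GATA motif AGATAA was found 52 bases before the upstream RefSeq start of Hnf4a, where it lies across the GENCODE start of the gene. It is held by 9.99% of 32851 promoters of the same length. No match was found for an HNF4 motif (CAAAGTCCA, in 0.384% of promoters), a CDX motif (TTTATG, 10.8%), a ONECUT motif (ATCGAT, 0.728%), an AP-1 motif (TGANTCA, 6.75%) or a TATA box (TATAAA, 12.4%). The Cdx2 window had a GC content of 55.2% and the Pdx1 window 54.8%.

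Of the remaining genes, Isx lies at chr8:74873173-74893506, Cdx1 at chr18:61018862-61036199, Gata6 at chr18:11052064-11085635 and Onecut2 at chr18:64340020-64400987. Each of the 9 genes was expressed in every library. Divided by the length of the merged exons, the untreated level was highest for Hnf4a, with 3878 ± 219 CP20M per kb (SD, n = 4), which placed it at rank 283 of 30237 genes with a value above 0. Cdx1 followed with 2351 ± 443 CP20M per kb, Hnf4g with 1971 ± 296 and Cdx2 with 1477 ± 136. Gata4 had 1171 ± 39.0, Pdx1 602 ± 42.7, Onecut2 386 ± 14.2, Gata6 372 ± 29.1 and Isx 271 ± 140 CP20M per kb. Thus the master enterocyte receptor gene stood above both caudal genes, and Gata6 and Onecut2 were within each other's spread. With PAM from day 2, Cdx1 stood at 1066 ± 142 and Hnf4a at 4471 ± 213 CP20M per kb (SD, n = 3).

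The libraries were epithelial. All 7 epithelial markers, Cdx2 among them, reached 10 CP20M, and Krt8, a keratin of simple epithelia, ranged between 28424 and 59104. The 9 mesenchymal markers summed to between 15 and 60 CP20M, the 4 endothelial markers to between 12 and 111, and the 4 markers of enteric nerve to between 15 and 48, with Lum at 0 in every library. The 6 immune markers summed to between 254 and 367, nearly all of it Csf1r (241 to 334). Between 19.7 and 28.65 M reads (median 22.55) were estimated per library. No pair of replicates was a copy of another.

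**Figure D1:**
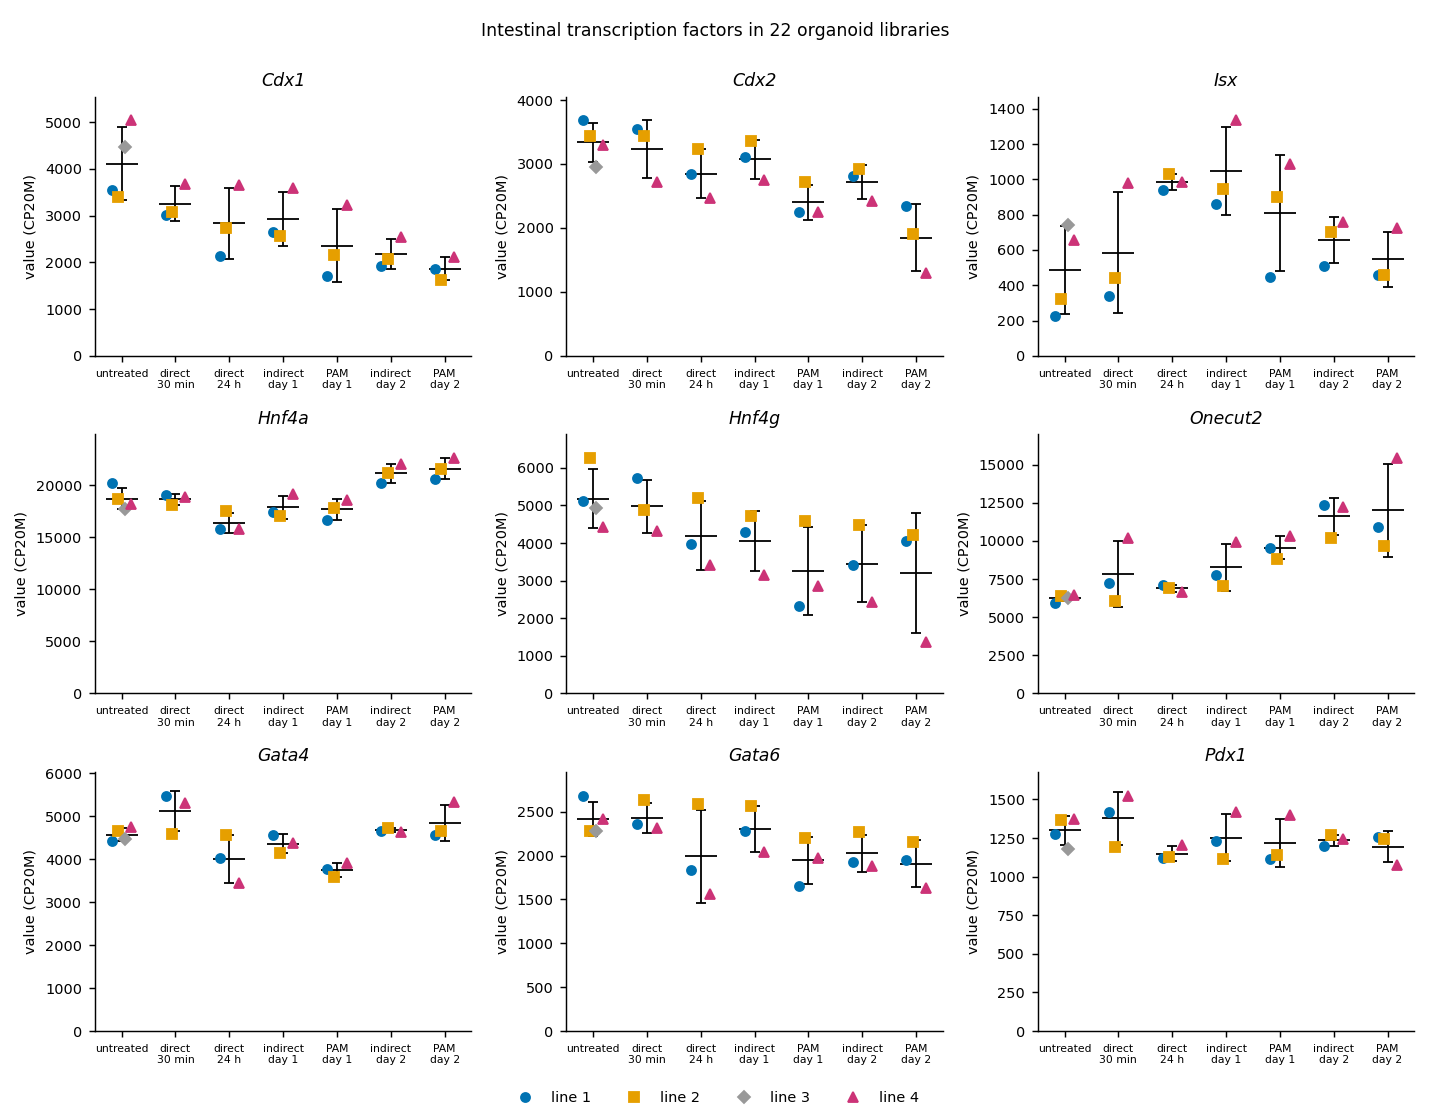
Values of the 9 transcription factor genes in CP20M (linear axes from 0) in 22 libraries, by group. Each symbol is 1 library, its shape and colour give the organoid line, and bars are the mean ± SD of the group. Cdx1 fell from 4114 in untreated organoids to 1866 with PAM from day 2 and Onecut2 stood at 6270 and 11993, while Pdx1 stayed between 1077 and 1525 in all libraries.

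Cdx1 had the lowest log2 difference of the 9 genes in all 7 comparisons with untreated organoids. A gene was past the threshold at an adjusted p under 0.01 and a log2 difference of at least 1 in limma's moderated test on log2(CP20M + 1), with p adjusted over all genes tested. Only Cdx1 with PAM from day 2 was past it, 1 of 9 members against 17.3% of all genes tested. No member was past it with PAM from day 1 (10.2% of all genes), indirect CAP from day 2 (11.9%), indirect CAP from day 1 (1.31%) or direct CAP for 24 h (2.17%) and 30 min (0.00564%). The same held when 3 groups exposed from day 1 (direct for 24 h, indirect and PAM, 9 libraries) were pooled and set against untreated (6.34%). The pool is called 24 h of CAP from day 1 after the paper. The labels give 30 min for its indirect and PAM libraries. Those 9 libraries came from lines 1, 2 and 4 only, each used in all 3 groups. The main pooled fit treats them as independent, so its p-values may be too small.

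Without a fold minimum, at an adjusted p under 0.05, 6 of 9 members passed with PAM from day 1 (41.8% of all genes tested), 4 with indirect CAP from day 2 (43.8%), 4 with PAM from day 2 (47.6%), 3 in the pooled comparison (33.5%) and 1 with indirect CAP from day 1 (20.6%). None passed with direct CAP for 24 h (17.3%) or for 30 min (0.00564%), where 2 and 0 members had an unadjusted p under 0.05 (32.6% and 24.9% of all genes). Outside PAM from day 1, the share of members was near that of all genes or below it. Lower and higher values that did not overlap with any untreated library were found for 6 members with PAM from day 2 (53.4% of all genes tested), 5 with indirect CAP from day 2 (48.5%), 5 with PAM from day 1 (46.8%), 3 with direct CAP for 24 h (30.7%), 2 with indirect CAP from day 1 (34.4%), 1 in the pooled comparison (17.7%) and 0 with direct CAP for 30 min (23.6%). The median log2 difference of the members was -0.28 with PAM from day 1, where that of all genes tested was -0.13, and -0.12 with PAM from day 2, where that of all genes was also -0.12.

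**Figure D2:**
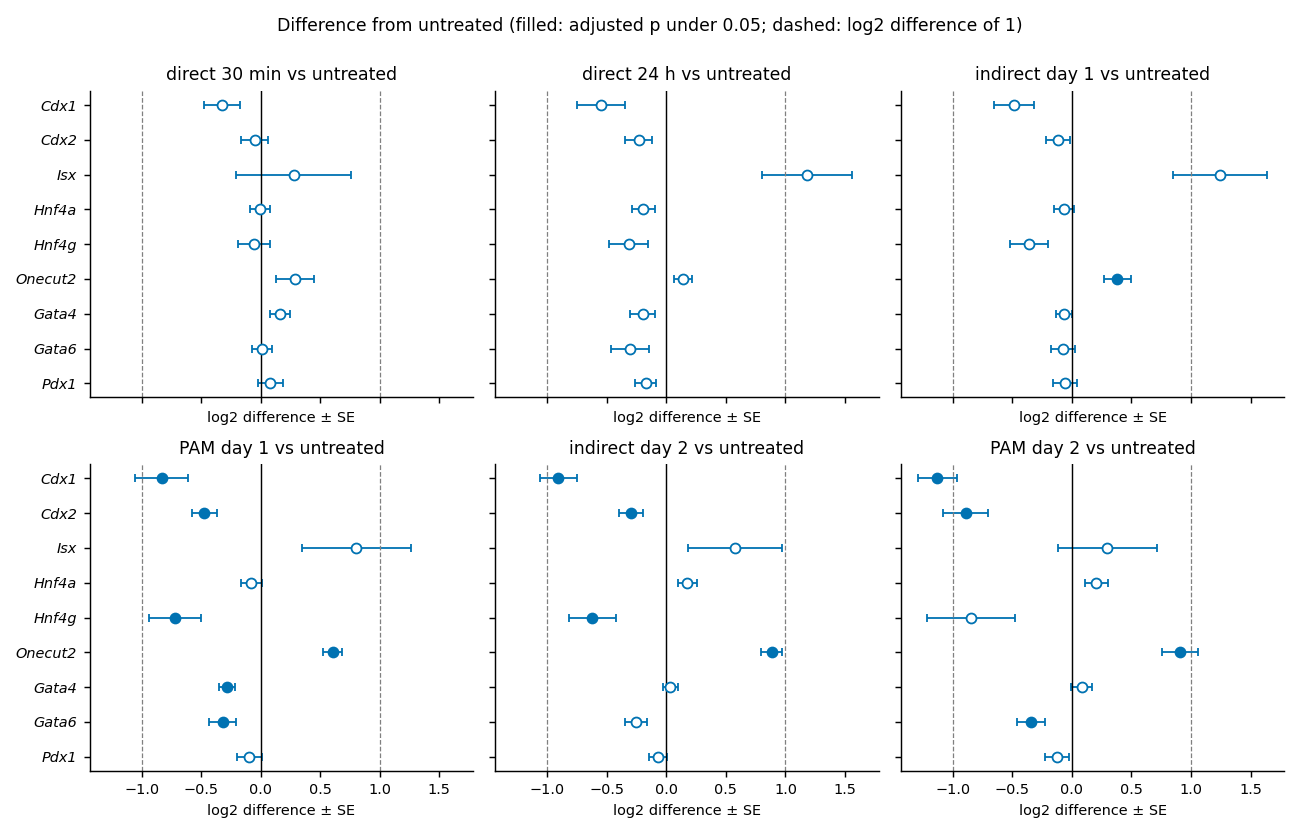
Log2 difference from untreated ± SE (limma) for the 9 genes in each of the 6 treated groups, where filled points have an adjusted p under 0.05 and dashed lines mark a log2 difference of 1. Cdx1 lies left of 0 in all 6 panels and Onecut2 right of it, and the Cdx1 point with PAM from day 2 (-1.13) is the only filled one beyond a dashed line.

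Cdx1 fell with PAM from day 2. In untreated organoids it was at 3550, 3401, 4469 and 5036 CP20M in lines 1 to 4. With PAM from day 2 it was at 1865, 1617 and 2115 in lines 1, 2 and 4, so that the highest treated library was under the lowest untreated one. The mean went from 4114 ± 775 (SD, n = 4) to 1866 ± 249 (SD, n = 3), a fitted ratio of 0.457 (log2 difference -1.13 ± 0.161 SE, adjusted p = 0.0011). With the line as a replicate block the difference was -1.08 (adjusted p = 0.00291).

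The other exposed groups held less Cdx1 than untreated organoids by smaller margins. With indirect CAP from day 2 the values were 1930, 2064 and 2537 (log2 difference -0.91 ± 0.156 SE, adjusted p = 0.0023), again below every untreated library. With PAM from day 1 they were 1699, 2154 and 3227 (-0.83 ± 0.223 SE, adjusted p = 0.0171), and line 4 stood well above the others. Direct CAP for 24 h gave 2140, 2729 and 3650, indirect CAP from day 1 gave 2639, 2563 and 3581, and direct CAP for 30 min gave 3011, 3067 and 3681. In each of lines 1, 2 and 4 these values were below the untreated value of the line, although the groups overlapped (log2 differences of -0.55, -0.49 and -0.33, adjusted p = 0.0912, 0.0695 and 0.216). With the replicate block the adjusted p was 0.0419, 0.0184 and 0.178. The order of the group means ran from untreated over direct 30 min, indirect day 1, direct 24 h, PAM day 1 and indirect day 2 to PAM day 2, and neighbours in that order overlapped throughout. Pooled over 24 h of CAP from day 1, the difference was -0.62 ± 0.185 SE (adjusted p = 0.0189). That call was lost without the untreated library of line 3 (adjusted p = 0.058) or of line 4 (adjusted p = 0.0751), the highest pair.

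Cdx2, the paralogue that is needed for intestinal identity in the embryo, was lower in the PAM groups as well. Untreated organoids had 3681, 3436, 2947 and 3298 CP20M. PAM from day 2 gave 2337, 1909 and 1292 (log2 difference -0.89 ± 0.19 SE, adjusted p = 0.00615), just short of the fold required. All 3 lay below the untreated range, and line 4 was the lowest of the 22 libraries. Without it the difference was -0.66 (adjusted p = 0.00425). PAM from day 1 gave 2242, 2718 and 2249 (-0.48 ± 0.105 SE, adjusted p = 0.0076) and indirect CAP from day 2 gave 2816, 2915 and 2416 (-0.30 ± 0.0994 SE, adjusted p = 0.0391), both outside the untreated range. The last call held in 2 of 7 fits that left out 1 library, with an adjusted p of up to 0.135, and was lost without the filter on low values (0.0635) and in 1 fit of all 7 groups (0.145). After direct CAP for 24 h (2838, 3235 and 2470), indirect CAP from day 1 (3114, 3359 and 2746) and direct CAP for 30 min (3541, 3440 and 2715) the values overlapped with untreated ones (adjusted p = 0.199, 0.407 and 0.81).

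The balance of Cdx1 and Cdx2 was compared within libraries. The log2 ratio of Cdx2 to Cdx1, which no scaling of a library can alter, was -0.29 ± 0.369 (SD, n = 4) in untreated organoids and 0.32 ± 0.343 (SD, n = 3) with indirect CAP from day 2, and the groups overlapped in every case. Over the 22 libraries the genes had a Pearson correlation of 0.479 on the log2 scale, given as a description, since libraries share lines and groups. The closest companion of Cdx2 among 19370 genes was Ascl2, a transcription factor of intestinal stem cells (r = 0.968), followed by Ppp1r1b (0.961) and Creb3l1 (0.96). The closest of Cdx1 were Pdha1, a subunit of pyruvate dehydrogenase (0.933), Nox1, an epithelial NADPH oxidase (0.932), and Elovl7, a fatty acid elongase (0.926).

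Stem cell markers moved with these results. The sum of Lgr5, Olfm4, Smoc2 and Ascl2 was between 28399 and 33368 CP20M in untreated organoids, 17213 and 26825 after direct CAP for 30 min, 4515 and 8518 after direct CAP for 24 h and 4840 and 12267 with indirect CAP from day 1. It was between 1951 and 2662 with indirect CAP from day 2, and under PAM between 770 and 1998 from day 1 and between 650 and 1925 from day 2. All 4 were lower and past the threshold in the last 3 groups (11.9%, 10.2% and 17.3% of all genes in that order), and none was at 0 throughout. In bulk RNA, fewer cells of a type and less RNA per cell cannot be told apart. Markers of other epithelial cells did not all move in the same direction in these groups. The sum of 7 enterocyte markers was between 134219 and 179160 CP20M with PAM from day 2, against 97237 and 117746 in untreated organoids. It was between 71006 and 147857 with PAM from day 1 and between 98920 and 117953 with indirect CAP from day 2. Of 4 Paneth cell markers, 3 were lower past the threshold with PAM from day 1 (10.2% of all genes), Lyz1 (-1.82), Defa17 (-2.20) and Defa24 (-1.78), and the sum of the 4 was between 3461 and 14536 CP20M against 21047 and 28206 in untreated organoids. Of 4 goblet cell markers, 2 were lower with PAM from day 2 (17.3% of all genes), Fcgbp (-1.64) and Spdef (-2.11), with a sum between 15682 and 42344 against 69893 and 126354. With PAM from day 1 the goblet sum was between 72196 and 158157. There Tff3 was higher (0.69, adjusted p = 0.00634) and Spdef lower (-0.97, adjusted p = 0.0243). Neurog3, a factor of enteroendocrine progenitors, was lower in the PAM day 1 (-4.02), PAM day 2 (-3.09) and indirect CAP day 2 (-1.72) groups. The sum of 4 enteroendocrine markers, Neurog3 among them, did not fall with it. It was between 1735 and 2856 CP20M in untreated organoids, and between 2736 and 4641 with PAM from day 2. With PAM from day 1 it was between 1240 and 7907, and with indirect CAP from day 2 between 2628 and 4388. Of the other members, Chga and Chgb had higher means in both PAM groups and Neurod1 lower ones. Pou2f3, a tuft cell factor, was lower with PAM from day 2 (-1.82). No marker of these lists was at 0 in every library. The part of these markers in the results of the 9 factors was not tested.

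The HNF4 paralogues were compared in level and in ratio. Hnf4g was lower with PAM from day 1 and with indirect CAP from day 2, while Hnf4a stayed between 15795 and 22611 CP20M in all 22 libraries. Untreated organoids had 5125, 6262, 4923 and 4422 CP20M of Hnf4g. PAM from day 1 gave 2337, 4583 and 2854 (log2 difference -0.72 ± 0.219 SE, adjusted p = 0.0291) and indirect CAP from day 2 gave 3425, 4486 and 2431 (-0.62 ± 0.199 SE, adjusted p = 0.0343). Line 2 stayed within the untreated range in both groups. Each call held in 2 of 7 fits that left out 1 library, with an adjusted p of up to 0.0949 and 0.0934, and both were lost in 1 fit of all 7 groups (0.086 and 0.133). PAM from day 2 gave 4045, 4216 and 1365, all below the untreated range (-0.85 ± 0.369 SE, adjusted p = 0.0903, with 0.0476 in the replicate block and 0.0343 in 1 fit of all 7 groups). Without line 4, the lowest of all libraries, that difference was -0.32 (adjusted p = 0.0956). The 3 remaining groups ranged between 3157 and 5728 and overlapped with untreated organoids (adjusted p = 0.128 to 0.831).

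Hnf4a, the most abundant member, had group means that differed by at most 1.32-fold. Untreated organoids had 20196, 18697, 17760 and 18232 CP20M. In the indirect CAP day 2 group Hnf4a stood at 20216, 21151 and 22080, and in the PAM day 2 group at 20551, 21597 and 22611, so that the 6 libraries lay above every untreated library, the lowest by 20 CP20M. Direct CAP for 24 h gave 15821, 17518 and 15795, all below. None of these differences passed the test (log2 0.18 ± 0.082 SE, 0.21 ± 0.0942 SE and -0.19 ± 0.0959 SE, adjusted p = 0.113, 0.104 and 0.202). Their size depended on how libraries were scaled. After quantile normalization the differences were 0.03 (adjusted p = 0.746) with indirect CAP from day 2, 0.01 (adjusted p = 0.943) for PAM from day 2 and -0.32 (adjusted p = 0.0381) with direct CAP for 24 h. In 1 fit of all 7 groups the adjusted p for PAM from day 2 was 0.0299. Quantile normalization also gave -0.26 (adjusted p = 0.0224) for Hnf4a with PAM from day 1, where the main value was -0.08 (adjusted p = 0.499), and -0.25 (adjusted p = 0.0128) in the pooled comparison, where the main value was -0.11 (adjusted p = 0.253).

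Within a library, the log2 ratio of Hnf4g to Hnf4a is free of scaling. It was -1.86 ± 0.206 (SD, n = 4) in untreated organoids, between -2.04 and -1.58. With indirect CAP from day 2 it was -2.66 ± 0.481 and with PAM from day 2 -2.92 ± 0.981 (SD, n = 3 each), and in both groups every library was below the untreated range. The change was -0.80 and -1.05. In the PAM day 2 group the ratio was -2.34 in line 1, -2.36 in line 2 and -4.05 in line 4, and without line 4 the change was -0.49. With PAM from day 1 it was -2.50 ± 0.473, with line 2 inside the untreated range. The ratio was set up after the values had been seen and carries no test.

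Genes that followed Hnf4g most closely over the 22 libraries were Gm16143 (r = 0.976), Ccl25, a chemokine of the small intestinal epithelium (0.97), and Pbld2 (0.967). Hnf4a was followed by Rlf (0.897), Prx (0.885) and 1700025N21Rik (0.878). Over the same libraries, Hnf4g correlated with Cdx2 at 0.841 and with Hnf4a at -0.306. The gene Hnf4aos, antisense to Hnf4a, had between 5 and 48 CP20M and shares no exon base with it.

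**Figure D3:**
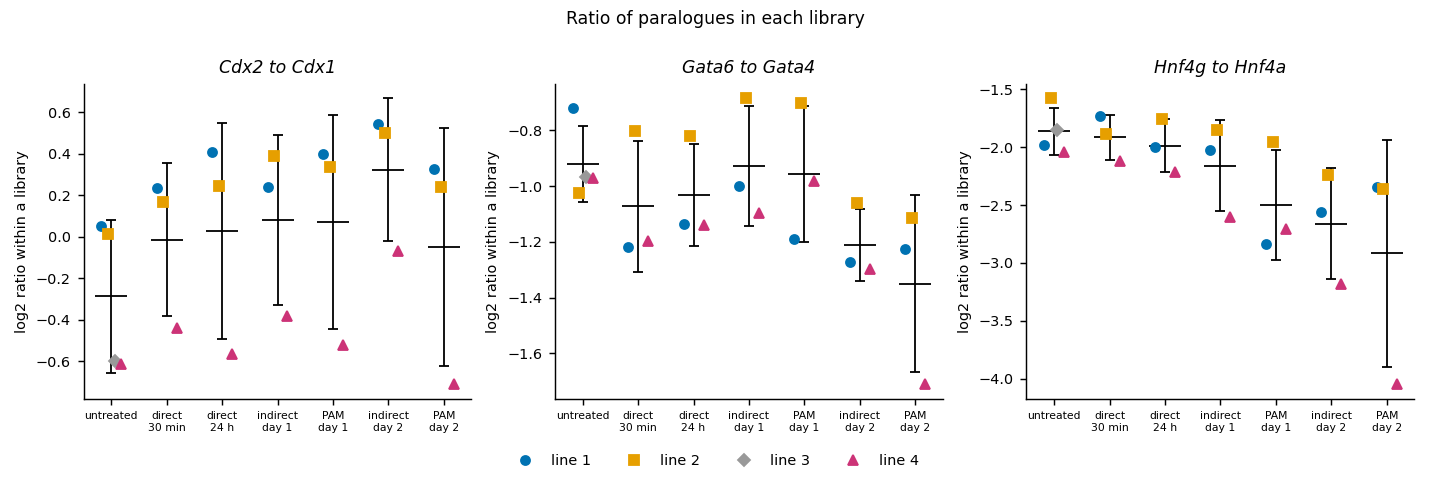
Log2 ratio of the values of paralogues within each library, by group, with 1 symbol per library (shape and colour by line) and bars for the mean ± SD. The ratio of Hnf4g to Hnf4a goes from -1.86 in untreated organoids to -2.92 with PAM from day 2, and the ratio of Cdx2 to Cdx1 is lowest in line 4 in all 7 groups.

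Onecut2 was higher in most exposed groups. Untreated libraries were close together at 5950, 6391, 6262 and 6477 CP20M. In the indirect CAP day 2 group it stood at 12383, 10219 and 12204 (log2 difference 0.88 ± 0.0868 SE, adjusted p = 0.000171), PAM from day 2 gave 10910, 9635 and 15433 (0.91 ± 0.154 SE, adjusted p = 0.00234) and PAM from day 1 gave 9528, 8798 and 10299 (0.60 ± 0.0817 SE, adjusted p = 0.000866). In these 3 groups the 9 libraries all lay above the untreated range, and the adjusted p stayed under 0.05 whichever library was left out. The fold stayed under the minimum asked for in each. Without line 4, the highest of all libraries, PAM from day 2 gave 0.71 (adjusted p = 0.000905).

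With indirect CAP from day 1, Onecut2 was at 7781, 7041 and 9946 (0.38 ± 0.116 SE, adjusted p = 0.0485), above all untreated libraries, and the adjusted p was 0.0558 with the replicate block, 0.0616 without the filter on low values and 0.114 in 1 fit of all 7 groups. That call held in 1 of 7 fits that left out a library. Direct CAP for 24 h gave 7083, 6938 and 6659, each above the untreated range but close to it (0.14 ± 0.0765 SE, adjusted p = 0.255). Direct CAP for 30 min gave 7259, 6044 and 10218 and overlapped with it (adjusted p = 0.287). Pooled over 24 h of CAP from day 1, the 9 libraries were all higher than untreated ones (0.37 ± 0.121 SE, adjusted p = 0.0287). The replicate block gave 0.0588, and leaving out any 1 of the 4 untreated libraries gave between 0.0556 and 0.0815. The genes closest to Onecut2 over the libraries were Mink1, a kinase (r = 0.957), Fndc3b (0.957) and Slc4a2, an anion exchanger (0.955). Its correlation with Cdx2 was -0.763.

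Isx was the member with the widest spread between untreated lines. It was at 228, 320, 741 and 656 CP20M in lines 1 to 4. In the pooled comparison it was higher after 24 h of CAP from day 1, 948 ± 234 (SD, n = 9 libraries from lines 1, 2 and 4) against 486 ± 250 (SD, n = 4). The log2 difference was 1.08 ± 0.298 SE (adjusted p = 0.0133). That was short of the threshold on the p alone. The call at 0.05 was lost without the untreated library of line 1 (0.77, adjusted p = 0.0623) or line 2 (0.93, adjusted p = 0.0533). With the replicate block the difference was 1.33 (adjusted p = 0.00115) and after quantile normalization 1.15 (adjusted p = 0.0078), both past the threshold. Line 3 was untreated only, so the block takes it out of the difference. It held the highest untreated value, and without it the difference in the main fit was also 1.33 (adjusted p = 0.00734).

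By group, direct CAP for 24 h gave 942, 1029 and 985 and indirect CAP from day 1 gave 863, 946 and 1334, all above the untreated range (1.18 ± 0.378 SE and 1.24 ± 0.395 SE, adjusted p = 0.0643 and 0.0563). For indirect CAP from day 1, 1 fit of all 7 groups gave 0.0436 and quantile normalization a value just under 0.05. PAM from day 1 gave 446, 898 and 1087 (0.80 ± 0.457 SE, adjusted p = 0.193). The block gave an adjusted p of 0.0197, 0.00783 and 0.00868 for these groups. Isx was nearer to the untreated level in the day 2 groups, at 512, 701 and 757 under indirect CAP and 459, 456 and 726 under PAM, and at 337, 440 and 980 after direct CAP for 30 min (adjusted p = 0.268, 0.581 and 0.756). Its closest companions were Mapkapk2 (r = 0.877), a stress-activated kinase, Trpm2 (0.836) and Cnppd1 (0.828). Bco1 and Scarb1 were chosen from the target list after their values had been seen. Bco1, which encodes the enzyme that cleaves beta-carotene and is repressed by ISX, was at 1626 in untreated organoids and at 666 after 24 h of CAP from day 1 (log2 difference -1.23 ± 0.348 SE, adjusted p = 0.0151). Scarb1, also an ISX target, was at 1628 and 1530 (-0.09, adjusted p = 0.507).

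Gata4 and Gata6 differed little from untreated organoids. Gata4 was at 4429, 4657, 4461 and 4744 CP20M untreated and at 3783, 3579 and 3900 with PAM from day 1, below every untreated library (log2 difference -0.28 ± 0.0701 SE, adjusted p = 0.0122). The median of all genes tested lay at -0.13 in that comparison. The adjusted p stayed under 0.05 whichever library was left out. In the other groups Gata4 ranged between 3442 and 5481 and no adjusted p was under 0.05. It was lower with PAM from day 1 than from day 2 (4553, 4660 and 5326) in each library, with an adjusted p of 0.0962 for that difference.

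Gata6 was at 2685, 2286, 2281 and 2422 untreated. PAM from day 1 gave 1659, 2199 and 1976 (-0.32 ± 0.111 SE, adjusted p = 0.0464) and PAM from day 2 gave 1947, 2154 and 1627 (-0.35 ± 0.117 SE, adjusted p = 0.0397), both below the untreated range. The replicate block (0.0992 and 0.071), the fit without the filter (0.0793 and 0.0666) and the fit of all 7 groups (0.0906 and 0.0541) put both above 0.05, as quantile normalization did PAM from day 1 (0.0689), and each held in 1 of 7 fits that left out a library. With indirect CAP from day 2 the values 1933, 2270 and 1884 were also below it (-0.26, adjusted p = 0.0554). The ratio of Gata6 to Gata4 was -0.92 ± 0.136 on the log2 scale in untreated organoids, -1.21 ± 0.13 with indirect CAP from day 2 and -1.35 ± 0.318 with PAM from day 2, with the 6 libraries of both groups below the untreated range. Gata6 overlaps 1010001N08Rik on the opposite strand by 93 exon bases. That gene had between 74 and 272 CP20M, and whether the counting used strand is not given in the sources used here. Gata4 was followed most closely by Med26 (r = 0.872), Rbm33 (0.861) and Erf (0.852), and Gata6 by Smarcd1 (0.928) and Hdac5 (0.922).

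Pdx1, the duodenal and pancreatic homeobox gene beside Cdx2, did not pass in any comparison. Untreated organoids had 1276, 1367, 1179 and 1376 CP20M. PAM from day 2, which held the lowest Cdx2 values, gave 1254, 1246 and 1077 of Pdx1 (log2 difference -0.12 ± 0.101 SE, adjusted p = 0.337). All group means lay between 1150 and 1377. The correlation with Cdx2 over the libraries was 0.271, and the most similar genes reached 0.766 (Mir5114), 0.753 (Scd2) and 0.751 (Ndst1), lower than for any other member. The antisense transcript Plut beside it was at 119 to 315 CP20M.

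Lines differed in these genes in a way that recurred from group to group. Among lines 1, 2 and 4, leaving out line 3, line 4 had the most Cdx1 in 7 of 7 groups and the most Isx in 6, and the least Cdx2 and the least Hnf4g in 6 each. Over the treated libraries, lines 1, 2 and 4 averaged 2214, 2366 and 3132 CP20M of Cdx1 and 3966, 4681 and 2924 of Hnf4g. Among untreated libraries, lines 3 and 4 lay above lines 1 and 2 for Cdx1 and Isx and below them for Cdx2, Hnf4a and Hnf4g. The PAM day 2 library of line 4 had the lowest Cdx2, Hnf4g and Pdx1 of all 22 libraries and the highest Hnf4a and Onecut2.

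The treated groups were also set against each other. No member had an adjusted p under 0.05 for direct CAP for 24 h against 30 min, for PAM from day 1 against direct CAP for 24 h, for day 2 against day 1 of indirect CAP or of PAM, or for PAM against indirect CAP from day 2. Of all genes tested, 0%, 0.258%, 3.37%, 0% and 0% reached it in that order, and at an unadjusted p under 0.05 the members numbered 2, 1, 4, 2 and 1 of 9 (21.4%, 10.4%, 21.7%, 26.8% and 9.48% of all genes). Treated groups share their lines, and with lines as a replicate block indirect CAP from day 2 held more Onecut2 than from day 1 (log2 difference 0.50, adjusted p = 0.00319) and less Cdx1 (-0.42, adjusted p = 0.00318), Isx (-0.67, adjusted p = 0.00107) and Hnf4g (-0.26, adjusted p = 0.0443). That made 4 of 9 members with the block, where 23.6% of all genes tested passed.

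The wider network was followed in lists of genes. Of 23 other transcription factors of the gut epithelium, 21 were tested with PAM from day 2, of which 3 were lower and 4 higher past the threshold (17.3% of all genes tested were past it), with a median log2 difference of 0.01 (-0.12 over all genes). Nr5a2, a nuclear receptor of crypts and bile acid control, fell from 827 to 248 CP20M (-1.78 ± 0.211 SE, adjusted p = 0.000564). Onecut3, a paralogue of Onecut2, rose from a mean of 6.5 to 23.7 (1.80 ± 0.41 SE, adjusted p = 0.00831) and Onecut1 stayed at or near 0. Maf, an enterocyte differentiation factor, rose (1.73) and so did Creb3l3, a regulator of lipid metabolism (1.52). Vdr, the vitamin D receptor and most abundant gene of the list, fell (-1.17). Pooled over 24 h of CAP from day 1, Onecut3 (1.48) and Maf (1.37) rose and Nr5a2 fell (-1.06), 1 lower and 2 higher of 21 (6.34% of all genes). Elf3, the second most abundant of the list, was at 5185 untreated and 5906 in the pooled group (adjusted p = 0.0989).

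Known targets of CDX2, HNF4 and GATA4 in enterocytes did not move 1 way. Of 22, none was past the threshold in the pooled comparison (6.34% of all genes) and 2 rose with PAM from day 2 (17.3%), Apob, the lipoprotein of chylomicrons, from 56892 to 141314 CP20M (1.31 ± 0.14 SE, adjusted p = 0.000419) and Alpi, the brush border alkaline phosphatase, from 26969 to 72337 (1.42 ± 0.242 SE, adjusted p = 0.0024). Their median was -0.04, against -0.12 for all genes. With indirect CAP from day 2, where 11.9% of all genes were past the threshold, 5 of 22 fell and 1 rose, with a median of -0.31 (-0.01 over all genes). The genes named here were chosen after their values had been seen. Apoc3 (-2.59), Apoa1 (-2.22) and Fabp2 (-1.94), all of lipid handling, fell, as did the peptidase gene Anpep (-2.29), and Alpi rose (1.07).

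The same shares of all genes, 6.34% pooled and 17.3% with PAM from day 2, stand beside the counts of the regional lists. Of 12 proximal genes, Cybrd1, the duodenal iron reductase (2.39), and Ada, adenosine deaminase (1.68), rose under PAM from day 2 and Gkn3 fell (-5.55), from 93.0 to 1.33 CP20M. The same 3 were past the threshold in the pooled comparison (1.66, 1.94 and -2.48). Their most abundant members, Apoa4 and Slc40a1, were at 17779 and 5221 untreated and at 28829 and 5543 with PAM from day 2 (adjusted p = 0.118 and 0.91). Of 7 ileal genes tested, Fgf15 rose with PAM from day 2, from 19.5 to 96.7 (2.39, adjusted p = 0.00966), and none was past the threshold in the pooled comparison. The most abundant ileal genes, Mep1b and Guca2a, were at 5781 and 990 untreated and at 9714 and 865 with PAM from day 2 (adjusted p = 0.0209 and 0.44). Of 12 colonic genes 5 were tested. In the pooled comparison Slc37a2 rose (1.69) and Aqp8 fell (-1.77), and with PAM from day 2 none was past the threshold. Cyp2c55, the most abundant of them, was at 266 untreated and 394 in the pooled group (adjusted p = 0.345), and Hoxb13 and Car1 were at 0 in every library.

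Gastric genes, which CDX2 keeps low in the gut, had the highest median of these lists in the pooled comparison, 1.89 over 12 tested against -0.05 for all genes. Past the threshold were 2 of 12 (6.34% of all genes), Anxa10, an annexin of the gastric surface, from 2117 to 8270 CP20M (1.99 ± 0.392 SE, adjusted p = 0.00214), and Ctse, cathepsin E, from 155 to 1309 (3.15 ± 0.783 SE, adjusted p = 0.00751). Tff1, a trefoil peptide of gastric mucus, was at 1297 and 6217 (2.60, adjusted p = 0.0244). The summed level of the 14 genes was between 1240 and 7110 in untreated organoids, 14894 and 35653 with PAM from day 1 and 8689 and 34834 after direct CAP for 24 h. After direct CAP for 30 min it ranged between 3137 and 24768. With PAM from day 2, where Cdx1 and Cdx2 were lowest, the sum was between 8280 and 14985. Anxa10 (1.98) and Muc6, a gland mucin (2.48), were past the threshold there, with a median of 1.13 over 10 tested. Vsig1 was below every untreated library in that group (-1.09, adjusted p = 0.0646). A link of the gastric genes to Cdx1 or Cdx2 was not tested. Of 11 pancreatic genes 4 were tested, Ctrb1, a pancreatic protease, fell in both comparisons (-2.51 and -3.07) and Iapp with PAM from day 2 (-1.39). Both had low values, Ctrb1 with 41.0 untreated and 4.67 with PAM from day 2, and Iapp with 10.5 and 3.33. Ptf1a and Ins1 were at 0 throughout. Cela2a, the most abundant, was at 41.5 untreated and 39.7 with PAM from day 2 (adjusted p = 0.82), and Pnlip at 15.5 and 17.3 (adjusted p = 0.762).

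**Figure D4:**
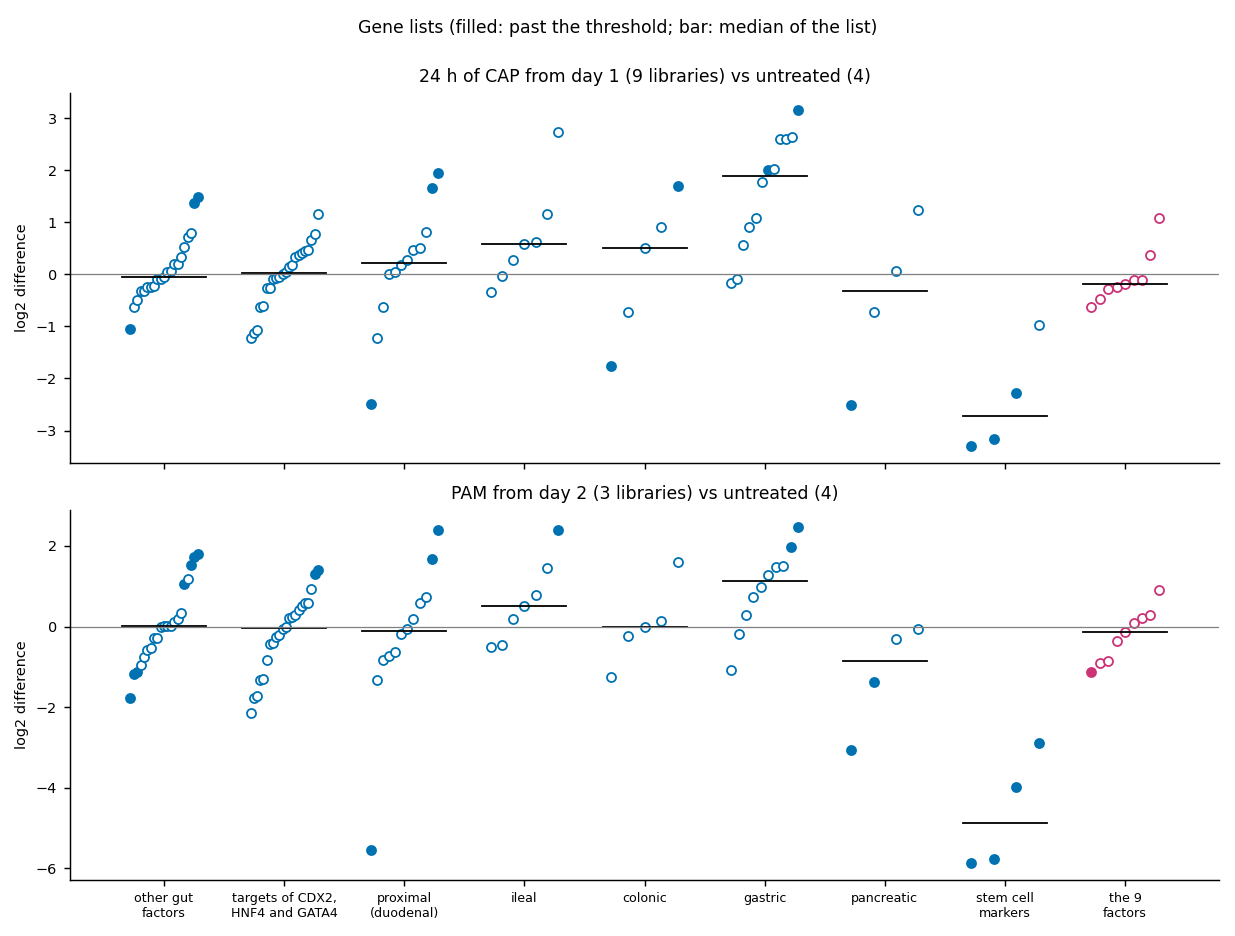
Log2 difference from untreated for each tested gene of 7 lists, for 4 stem cell markers and for the 9 transcription factors, pooled over 24 h (by the paper) of CAP from day 1 (upper panel) and with PAM from day 2 (lower panel), where filled points are past the threshold and bars are list medians. The gastric list has a median of 1.89 in the upper panel and the stem cell markers one of -4.88 in the lower panel, while 8 of the 9 factors are open points there.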

How the data were processed

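RNA-seq of 22 mouse duodenal organoid libraries was analysed. The authors trimmed reads with Trimmomatic 0.36, aligned them with STAR 2.5.3a to GRCm38 and counted them with HTSeq 0.9.1. The deposited values are a score per gene and library, CP20M, which the paper's captions define per kilobase. They were treated as read counts scaled to a common total and not divided by length. In the frequencies of the values 5 to 39, deviations from neighbouring values were compared between short and long genes (the lower and upper tertile of exon length). They correlated above 0 in 21 of 22 libraries (median 0.645, from -0.42 to 0.91). The exception was a library with an estimated 20 M reads. All values were whole, and libraries summed to between 20007540 and 20016513. Rounding up lifts low values, and since raw counts were not used here, tests for counts were not run. Reads per library were estimated from the spacing of low values.

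The test was limma 3.58.1 (trended, moderated, two-sided) in R 4.3.3 on log2(value + 1), over genes at 10 or more in at least 3 libraries of the comparison. P-values were adjusted by Benjamini-Hochberg over all genes tested. The threshold was an adjusted p under 0.01 and a log2 difference of at least 1, with an adjusted p under 0.05 alone as the second rule. All 9 genes passed the filter in every comparison. The model was tested on simulated data. The alternatives comprised no filter on low values, quantile normalization, a pseudocount of 10, 1 fit of all 7 groups, the line as a replicate block and each library left out in turn. Paralogue ratios and the tests of day 2 groups against direct CAP for 24 h were added after seeing the data. The members and gene lists were chosen with earlier results of these data known. Named genes were up to 4 past the threshold per list with the largest change in the pooled and in the PAM day 2 comparison, the 2 most abundant of each list, and the 3 most correlated with each member. Some items that these rules name are not reported here. Comparisons with untreated organoids share the same 4 control libraries.

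Positions and exon lengths came from GENCODE vM21 (GRCm38), in which 52403 of 52636 Ensembl identifiers were found (99.6%). Replicates were checked for copies in 24 pairs, whose mean chi-square per gene was at least 14.7. Pairing by line was checked on deviations from group means. The 45 pairs of treated libraries of the same line had correlations between 0.221 and 0.851 (median 0.616), and pairs of different lines a median of -0.34. Lines therefore pair the treated libraries. Of the untreated libraries, line 4 followed its own line (median 0.65), whereas line 1 followed treated line 2 (0.596) more than line 1 (0.0783), and line 2 followed treated line 1 (0.39) more than line 2 (0.152). Blocked comparisons with untreated organoids rest on those labels. They draw nothing from line 3, which has no treated library, so their differences equal those without it. Figures were drawn with Python 3.11.15 and matplotlib 3.10.9.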

Additional observations from a re-analysis of the deposited data

Results flagged for a closer look

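Hnf4a stood on opposite sides of the untreated libraries in different groups. It was above every untreated library with indirect CAP from day 2 and below every one after direct CAP for 24 h, and the means of these groups were 4771 CP20M apart. With PAM from day 2, also above every untreated library, the gap to direct CAP for 24 h was 5208 CP20M. Tested directly, the first pair of groups gave a log2 difference of 0.37 ± 0.113 SE (limma, adjusted p = 0.0974), in a comparison where 5.22% of all genes had an adjusted p under 0.05. The replicate block gave an adjusted p of 0.0228 (30% of all genes under 0.05) and 1 fit of all 7 groups 0.00744 (14.6%). The second pair gave 0.40 ± 0.141 SE (adjusted p = 0.108, 8.9% of all genes under 0.05), with 0.0856 in the block (24.5%) and 0.0013 in the fit of all groups (31.6%). Other members had an adjusted p under 0.05 in the main fits of these pairs. Onecut2 was higher with indirect CAP from day 2 (log2 difference 0.75, adjusted p = 0.0227) and with PAM from day 2 (0.77, adjusted p = 0.0486) than after direct CAP for 24 h, and Isx was lower with PAM from day 2 (-0.88, adjusted p = 0.0428, and 0.123 in the fit of all groups). That made 1 and 2 of 9 members in the main fits. In the block, Cdx1 (adjusted p = 0.0212), Hnf4g (0.0332), Isx (0.00461) and Onecut2 (0.000896) were also under 0.05 for the first pair. For the second pair Cdx1 (0.0337), Cdx2 (0.023), Isx (0.01225) and Onecut2 (0.0184) were under 0.05 in the block. The fit of all groups had Onecut2 under 0.05 for both pairs (0.0102 and 0.00291), and Cdx2 (0.00718) and Gata4 (0.0324) for the second. Both comparisons were chosen after the values had been seen. In 18 sets of libraries examined for a library far from the others, 0 were found.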

How the results depend on the processing

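No result turned its direction past a threshold. Of 1413 alternative results of single members, 1386 kept their side of the threshold and 27 passed it. These results include the main values held to an adjusted p under 0.05 alone, a looser rule that gave part of the 27. Of 1373 uncalled values, 43 changed sign, all from a main log2 difference of at most 0.377 either way. Members past the threshold went from 0 to 1 in the pooled comparison after quantile normalization (Isx). With the replicate block they went from 0 to 1 in the pooled comparison and in both groups given treated medium at day 1 (Isx in each). With an adjusted p under 0.05 alone they numbered 3 pooled, 1 with indirect CAP from day 1, 6 with PAM from day 1, 4 with indirect CAP from day 2 and 4 with PAM from day 2. Leaving out 1 library gave between 0 and 1 members pooled, with PAM from day 1 and with indirect CAP from day 2, and between 1 and 2 with PAM from day 2. The added members were Isx pooled without untreated line 3 (1.33) or PAM day 1 line 1 (adjusted p under 0.01), Cdx1 with PAM from day 1 without line 4 (-1.09) and with indirect CAP from day 2 without line 4 (-1.02), and, with PAM from day 2, Cdx2 without line 1 (-1.08) or Onecut2 without line 2 (1.05).

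Over all genes, an adjusted p under 0.05 alone took the pooled count from 1173 to 6187 (3449 lower and 2738 higher), direct CAP for 24 h from 376 to 2995, indirect CAP from day 1 from 233 to 3662, PAM from day 1 from 1775 to 7253, indirect CAP from day 2 from 2127 to 7819, PAM from day 2 from 3063 to 8419, PAM from day 1 against direct CAP for 24 h from 0 to 44, and indirect CAP from day 2 against day 1 from 2 to 607. The replicate block gave 0 in place of 1 for direct CAP for 30 min, 200 in place of 0 for direct CAP for 24 h against 30 min, 58 in place of 0 for PAM from day 1 against direct CAP for 24 h, and 623 in place of 2 for indirect CAP from day 2 against day 1. The last comparison had 1 gene after quantile normalization and 61 in 1 fit of all groups, which also gave 882 in place of 0 for PAM from day 2 against day 1. Without 1 library the counts were 651 to 1309 pooled, 34 to 377 for direct CAP for 24 h (lowest without line 1), 25 to 110 for indirect CAP from day 1, 1134 to 1668 for PAM from day 1, 1357 to 2185 for indirect CAP from day 2, 2201 to 2946 for PAM from day 2, and 0 to 0 for direct CAP for 30 min and for the comparisons between treated groups. The cause was not tested.

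Of 18 member calls with an adjusted p under 0.05, 9 were kept without each library in turn. In the replicate block, Cdx2 pooled (adjusted p = 0.0388), Hnf4g pooled (0.0274) and with indirect CAP from day 1 (0.0303), and Isx with indirect CAP from day 2 (0.0273) came under 0.05. One fit of all 7 groups also brought under 0.05 Gata4 pooled (0.0475), for direct CAP for 24 h against 30 min (0.0448) and for PAM from day 2 against day 1 (0.0109), and Hnf4a in the last (0.017). Outside the comparisons added after seeing the data, the block changed no other call than these and those given with the results. With 3 or 4 lines a group, moderate differences may go undetected, and values rounded up from counts carry no exact counting interval.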
